A study of Eulimnogammarus verrucosus and Eulimnogammarus cyaneus and Gammarus lacustris with 24 samples.

Results

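The response to cold of 2 amphipod crustaceans endemic to Lake Baikal, Eulimnogammarus verrucosus and Eulimnogammarus cyaneus, was set against that of the widespread Gammarus lacustris. For each gene symbol, the mean of the log2 fold changes of the 2 endemic species (1.5 °C over 12 °C) was compared with the log2 fold change of G. lacustris. Symbols in the authors' deposited tables were matched without regard to case. Of 7186 symbols in any of the 3 tables, 1448 occurred in all 3, and the 333 of these with a mean normalised count of at least 20 in every species are the shared symbols described here. The tables hold 3920, 3674 and 5094 entries for E. verrucosus, E. cyaneus and G. lacustris.

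Adult animals collected at Bolshie Koty on the lake shore were held at 6 °C for 14 days and brought gradually, over about 6 days, to 12 or 1.5 °C, where they stayed for 1 month. The design therefore has 6 groups, each species at 12 °C and at 1.5 °C, with 4 libraries each and 24 libraries in all. A library holds poly(A) RNA of the whole bodies of a pool of animals, about 11 for G. lacustris, about 13 for E. cyaneus and 3 for E. verrucosus. All animals of a group thus share the species, the starting temperature and the duration, and no animal stayed at 6 °C as a further control. The labels do not say whether the pools of a group were kept in separate tanks, so the p-values measure the spread between pools, part of which may be technical. They do not measure the spread between species. With a single widespread species and both endemics from the genus Eulimnogammarus, endemic status cannot be told apart from genus or species.

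Amphipods are ectotherms, whose body temperature follows the water. Cold slows enzymes, translation, folding and membrane transport, and animals that stay in the cold for weeks are known to adjust the amounts of ribosomal, folding, metabolic and contractile proteins. The endemic species live in a lake that is cold for most of the year, while G. lacustris lives in ponds and lakes across the Northern Hemisphere, so the contrast asks which functions respond to the same cold in the same way and which do not.

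Libraries of G. lacustris held 8501814 to 10176490 counts, those of E. cyaneus 9110157 to 14222364 and those of E. verrucosus 10187151 to 15417652. The deposited tables name genes and the count files name transcripts, so names were joined to transcripts by their mean normalised count. This gave per-library counts for 230, 246 and 196 of the 333 symbols in the 3 species and for 143 symbols in all 3. These are given as CPM (a count as a share of its library, with the library sizes of a species scaled to each other by TMM), and levels are compared within a species only, since each species has its own assembly. All 5 muscle marker names looked for (MHC, MLC2, TNNI1, UNC-89 and SLS) were in every table, as fits a whole body, while 1, 1 and 2 of 3 eye markers, 0, 1 and 0 of 3 digestive gland markers and 1 of 3 neuronal markers were found in the 3 tables. In whole-body RNA, fewer cells of a type and less RNA per cell cannot be told apart. The same symbol need not be the same gene copy in each assembly, and for 88 of the 333 symbols (26.4%) the mean normalised count differed over 10-fold between species.

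The 3 species differed first in how far the whole set of shared symbols was displaced. In the authors' deposited tables the median log2 fold change over the 333 symbols was 0.59 for G. lacustris, against 0.00 for E. verrucosus and -0.04 for E. cyaneus. The authors' adjusted p was below 0.05 for 17 symbols in E. verrucosus (5.11%, 8 higher and 9 lower in the cold), 37 in E. cyaneus (11.1%, 11 higher and 26 lower) and 229 in G. lacustris (68.8%, 150 higher and 79 lower). Over all entries of the authors' deposited tables the shares were 3.85, 4.19 and 57.8%. The fold changes of G. lacustris also had a shape of their own, with a main peak at a log2 value of 0.98 and a separate low peak at -2.15.

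The lowest point between the 2 peaks, at a log2 fold change of -0.99, was taken as the boundary of the low peak. Below it lay 843 of the 2605 G. lacustris entries at the minimum mean count (32.4%) and 70 of the 333 shared symbols (21.0%), which leaves 263 outside. The symbols nearest to the boundary in the authors' deposited table were UNC-22 and TBC1D22B inside, both at -1.05, and TAF1 at -0.98 and SCAPER at -0.90 outside. In neither endemic species did these 70 symbols stand apart, with deposited medians of 0.17 in E. verrucosus and -0.00 in E. cyaneus against -2.12 in G. lacustris. Among the 263 symbols outside the low peak, the deposited medians were -0.03, -0.08 and 0.80, and the interquartile ranges were 0.59, 0.65 and 0.93.

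**Figure D1:**
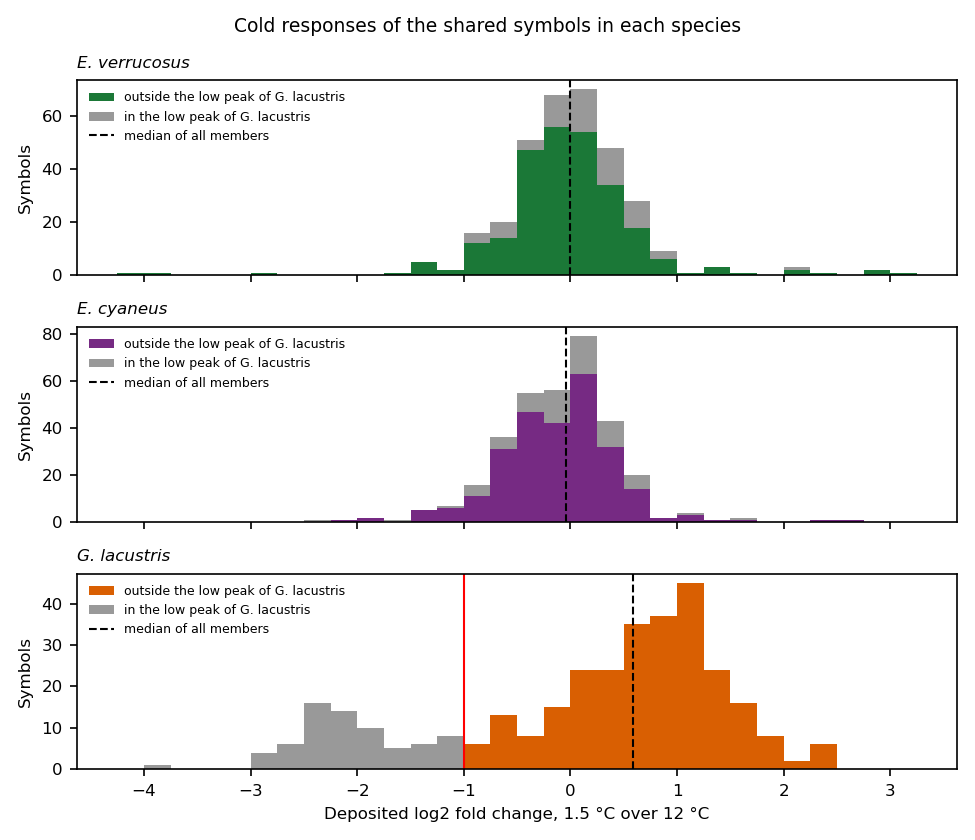
Histograms of the deposited log2 fold change (1.5 °C over 12 °C, x axis) of the 333 shared symbols, counted on the y axis, in E. verrucosus (top), E. cyaneus (middle) and G. lacustris (bottom). Grey bars are the 70 symbols in the low peak of G. lacustris, coloured bars the other 263, the dashed line is the median of all symbols and the red line the boundary of the low peak. The medians are 0.00, -0.04 and 0.59, and grey symbols lie around 0 in both endemic species.

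Because a displacement of every symbol enters the contrast, the scale of G. lacustris matters for each call. The authors' size factors, recovered from the deposited means, were 1.18 to 1.27 for the 12 °C libraries of G. lacustris and 0.753 to 0.906 for the 1.5 °C libraries, although the totals of counts were alike. With edgeR's TMM factors, the G. lacustris fold changes were lower than the deposited ones (median difference -0.44 on the log2 scale), against shifts of 0.01 in E. verrucosus and 0.10 in E. cyaneus. The difference was therefore read on 3 scales: as deposited, after centring each species on its median over the shared symbols, and after centring on its median over the symbols outside the low peak. The last scale was added after the data had been seen. A symbol is described as apart on all scales where the difference passed an adjusted p of 0.05 in the same direction on each of the 3. Which scale is nearest to the amount of RNA per animal was not tested.

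The fold changes of the shared symbols were at most weakly correlated between species, which share no libraries. Across the 263 symbols outside the low peak, Pearson's r of the deposited fold changes was 0.14 between the 2 endemic species, 0.03 between E. verrucosus and G. lacustris and -0.05 between E. cyaneus and G. lacustris. Spearman's rho for the same pairs was 0.19, 0.09 and -0.04. These are descriptions across genes of 3 species, and genes are not independent replicates. After centring outside the low peak, 147 of the 263 symbols (55.9%) had the same sign in both endemic species, 137 (52.1%) in E. verrucosus and G. lacustris and 120 (45.6%) in E. cyaneus and G. lacustris.

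Written as the endemic mean minus G. lacustris, the difference had a median of -0.61 over the 333 symbols, -0.88 over the 263 outside the low peak and 2.22 over the 70 within it, where its sign follows from how the peak was chosen. As deposited, the difference passed the test for 209 of 333 symbols (62.8%), with the endemics above G. lacustris in 75 (22.5%) and below in 134 (40.2%). Centred on all shared symbols it passed for 140 (42.0%), 99 above (29.7%) and 41 below (12.3%). Centred on the symbols outside the low peak it passed for 130 (39.0%), 108 above (32.4%) and 22 below (6.61%), so the balance of directions depended on the scale. Without the low-peak symbols, 141 of 263 passed as deposited (53.6%), 10 above (3.80%) and 131 below (49.8%), and 59 after centring (22.4%), 38 above (14.4%) and 21 below (7.98%). In the test on counts, 72 of 143 symbols passed (50.3%), 39 above (27.3%) and 33 below (23.1%). Centred on the shared symbols, 55 passed (38.5%), 43 above (30.1%) and 12 below (8.39%), and centred outside the low peak 50 (35.0%), again 43 above (30.1%) but 7 below (4.90%). Without the low-peak symbols 31 of 108 passed (28.7%), 3 above (2.78%) and 28 below (25.9%).

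On all 3 scales, 97 of 333 symbols were apart (29.1%), of which 65 lay in the low peak. Outside the low peak 32 of 263 were apart (12.2%), 10 with the endemics above G. lacustris (3.80%) and 22 with the endemics below (8.37%). Both endemic species lay on that side for all 22 of the latter and for 9 of the 10 former. In the counts, 39 of 143 symbols were above (27.3%) and 7 below (4.90%) on all scales. Outside the low peak these were 4 of 108 above (3.70%), which are named further on, and 7 below (6.48%), namely SELENOH, NVL, SLC25A36, HNRNPLL, STYX, WDR89 and OPN4. These 7 are among the 22, and all 12 of the 22 that had counts passed the count test as scaled by TMM. Of the 32 symbols, 12 had mean normalised counts that differed over 10-fold between species. HNRNPLL, RPS3, ND2, P4HB, PDI, HSPA1A, RPL19 and RPL-9 were among them.

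**Figure D2:**
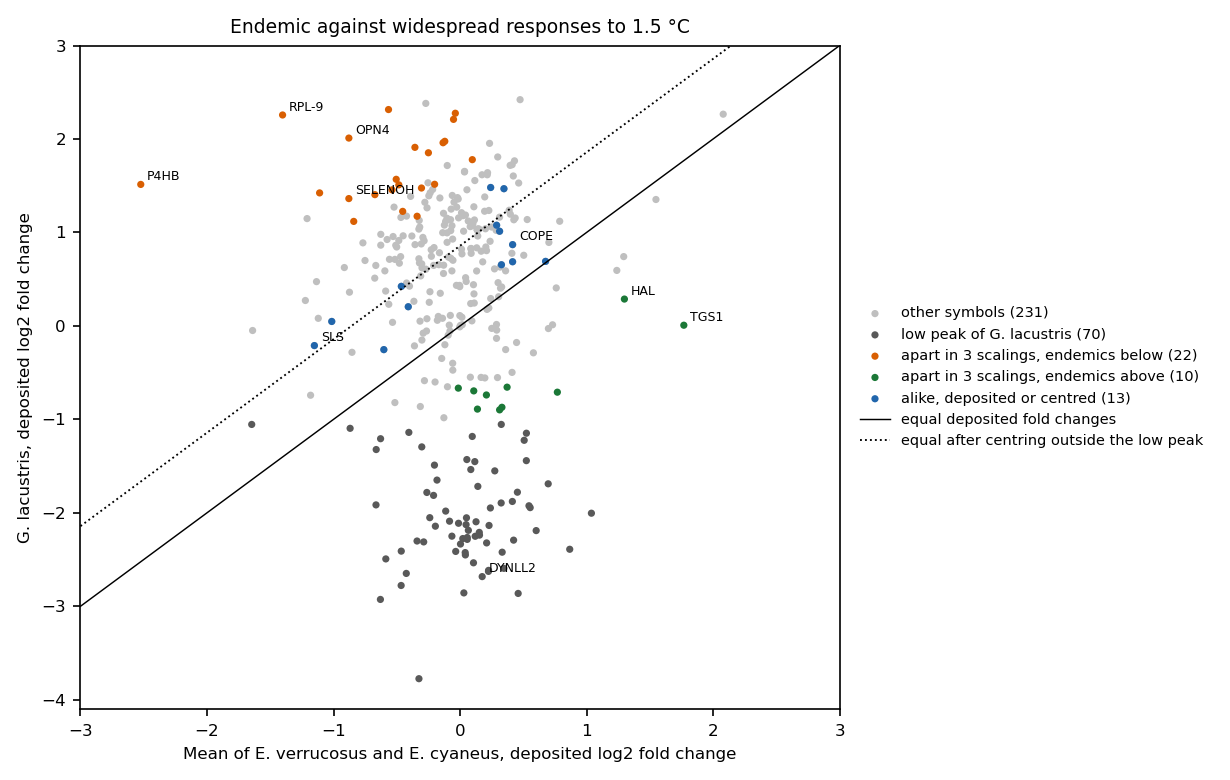
Deposited log2 fold change of G. lacustris (y axis) against the mean of the 2 endemic species (x axis) for the 333 shared symbols. The solid line marks equal deposited fold changes and the dotted line equal fold changes after centring outside the low peak. The 22 orange symbols lie above both lines, the 10 green symbols below both, the 70 dark grey symbols form the low peak, and the blue symbols, alike as deposited or after that centring, lie near one of the lines.

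Among the 22 symbols that were higher in the cold in G. lacustris relative to the endemics, SELENOH had the smallest p-value as deposited. SELENOH encodes selenoprotein H, a nucleolar redox protein with a thioredoxin-like fold. The 4 libraries of E. verrucosus held 33.1, 44.7, 34.8 and 38.8 CPM at 12 °C and 20.6, 22.3, 28.7 and 25.7 CPM at 1.5 °C. Those of E. cyaneus held 36.6, 47.4, 59.4 and 43.6 CPM at 12 °C and 17.4, 21.8, 27 and 26 CPM at 1.5 °C. In G. lacustris the values were 44.3, 39.7, 48.6 and 58.1 CPM at 12 °C and 94.5, 91.6, 89.7 and 85 CPM at 1.5 °C. The groups did not overlap in any species, and the cold libraries were the lower ones in both endemics and the higher ones in G. lacustris. SELENOH fell in E. verrucosus by 0.64 on the log2 scale (adjusted p = 0.0384) and in E. cyaneus by 1.12 (adjusted p = 1.02e-06), and rose by 1.36 in G. lacustris (adjusted p = 9.87e-10), in the authors' deposited tables. The difference was -2.24 (SE 0.25, adjusted p = 6.78e-17) as deposited, -1.38 after centring outside the low peak and -1.75 (SE 0.24, edgeR adjusted p = 3.09e-06) in counts. It was the only one of the 32 symbols apart outside the low peak that moved past the authors' threshold in opposite directions in both endemics and in G. lacustris. The other antioxidant symbols, SOD2 and GSTD6, were not apart on all scales.

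NVL is an AAA ATPase of the nucleolus that acts in assembly of the large ribosomal subunit. It measured 9.53, 10.8, 9.83 and 8.82 CPM at 12 °C and 7.07, 8.13, 9.64 and 12.7 CPM at 1.5 °C in E. verrucosus. In E. cyaneus it measured 7.04, 3.14, 3.03 and 2.44 CPM at 12 °C and 2.1, 2.84, 2.91 and 3.52 CPM at 1.5 °C. In G. lacustris it measured 7.73, 11.5, 7.98 and 11.6 CPM at 12 °C and 24.5, 23.1, 28 and 25 CPM at 1.5 °C. The temperatures overlapped in both endemics and did not overlap in G. lacustris, where NVL rose by 1.85 (SE 0.26) in the authors' deposited table. The difference was -2.10 (SE 0.35, adjusted p = 5.21e-08) as deposited and -1.62 (SE 0.33, edgeR adjusted p = 0.000248) in counts. DDX47, a DEAD-box helicase of rRNA processing, ranged from 6.95 to 12.6 CPM at 12 °C and 24.8 to 39.8 CPM at 1.5 °C in G. lacustris, with overlapping groups in both endemics, and its difference was -2.10 (SE 0.40, adjusted p = 1.53e-06). RPP40, a subunit of the RNase P and RNase MRP particles, ranged from 5.23 to 6.98 CPM at 12 °C and 10.4 to 14.1 CPM at 1.5 °C in G. lacustris, again with overlap in both endemics, and its difference was -1.78 (SE 0.32, adjusted p = 4.31e-07). On the count scale centred outside the low peak the differences were -1.04 for NVL, -0.99 for DDX47 and -0.69 for RPP40, and only that of NVL passed the threshold there.

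HNRNPLL encodes an RNA-binding regulator of alternative splicing. Its G. lacustris libraries held 0.98, 4.76, 3.32 and 4.87 CPM at 12 °C and 13.4, 16.3, 7.98 and 10.5 CPM at 1.5 °C, without overlap. In E. verrucosus they held 958, 465, 536 and 495 CPM at 12 °C and 560.0, 534, 617 and 848 CPM at 1.5 °C, and in E. cyaneus 958, 748, 770.2 and 645 CPM at 12 °C and 626, 769, 885 and 839 CPM at 1.5 °C. Both endemics overlapped between temperatures, and their abundance stood far above that of the G. lacustris entry, so the entries may not be the same gene copy. The difference was -2.26 (SE 0.48, adjusted p = 1.3e-05) as deposited, -1.40 after centring outside the low peak and -1.76 (SE 0.41, edgeR adjusted p = 0.000975) in counts. PQBP1, a polyglutamine-binding nuclear protein with a role in splicing, ranged from 6.42 to 12.4 CPM at 12 °C and 18.3 to 21.5 CPM at 1.5 °C in G. lacustris, and its difference was -1.72 (SE 0.35, adjusted p = 8.59e-06). PQBP1 overlapped between temperatures in both endemics and passed the count test, but not after the counts were centred outside the low peak.

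Ribosomal proteins and tRNA synthetases were also among the 22 symbols. RPS3 and RPL19 are components of the cytosolic ribosome, RPL-9 carries the Caenorhabditis elegans name of another, and TARS and QARS charge the threonine and glutamine tRNAs. RPS3 measured 261, 252, 195 and 266 CPM at 12 °C and 428, 482, 623 and 433 CPM at 1.5 °C in G. lacustris. In E. cyaneus it measured 739, 766, 559.7 and 435 CPM at 12 °C and 328, 385, 459.5 and 517 CPM at 1.5 °C. The groups were separate in G. lacustris and overlapped in E. cyaneus, while the E. verrucosus entry held at most 7.58 CPM. The difference of RPS3 was -1.99 (SE 0.38, adjusted p = 1.53e-06) as deposited and -1.68 (SE 0.44, edgeR adjusted p = 0.00264) in counts. RPL19 had deposited log2 fold changes of -0.78, -0.56 and 1.40 in E. verrucosus, E. cyaneus and G. lacustris in the authors' deposited tables, and a difference of -2.08 (SE 0.32, adjusted p = 3.26e-09). Its mean normalised counts were 8940.5, 158 and 6875.2 in the same order, so the entries may not be the same gene copy.

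TARS measured 160.2, 131, 147 and 156 CPM at 12 °C and 241, 251, 261 and 221 CPM at 1.5 °C in G. lacustris. In E. cyaneus it measured 173, 203, 187 and 156 CPM at 12 °C and 102, 131, 138 and 150.1 CPM at 1.5 °C. In E. verrucosus it measured 136, 149, 90.8 and 129.6 CPM at 12 °C and 93.1, 101, 145 and 129.9 CPM at 1.5 °C. The groups were separate in G. lacustris, where the cold libraries were higher, and in E. cyaneus, where they were lower, and overlapped in E. verrucosus. TARS rose by 1.17 in G. lacustris and fell by 0.56 in E. cyaneus in the authors' deposited tables, and the difference was -1.51 (SE 0.23, adjusted p = 1.6e-09). QARS followed the same order, with 48.6 to 61.3 CPM at 12 °C and 88.3 to 96.9 CPM at 1.5 °C in G. lacustris and 12.4 to 23.1 CPM at 12 °C and 4.63 to 14.3 CPM at 1.5 °C in E. cyaneus, and a difference of -1.68 (SE 0.29, adjusted p = 1.12e-07). The G. lacustris groups of QARS were separate and those of E. cyaneus overlapped.

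Of the protein-folding symbols, P4HB and PDI encode protein disulfide isomerases of the endoplasmic reticulum and HSPA1A the inducible cytosolic Hsp70. P4HB had the most negative difference of the 333 symbols, at -4.04 (SE 0.51, adjusted p = 1.21e-13), and -3.18 after centring outside the low peak. Its libraries in G. lacustris held 18.8, 55.2, 92.1 and 90.7 CPM at 12 °C and 125, 167, 122 and 126 CPM at 1.5 °C, without overlap. P4HB fell by 4.13 on the log2 scale in E. verrucosus in the authors' deposited table (adjusted p = 1.69e-31), and the deposited value in E. cyaneus, -0.92 (SE 0.52), did not pass. PDI and HSPA1A passed the authors' threshold in G. lacustris alone, at log2 values of 2.28 and 1.57 in the authors' deposited table. Their differences were -2.31 (SE 0.47, adjusted p = 4.88e-06) and -2.07 (SE 0.32, adjusted p = 3.26e-09).

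The mitochondrial symbols below G. lacustris on all scales were SLC25A36 and ND2. SLC25A36 is a carrier of pyrimidine nucleotides across the inner membrane. ND2 is a subunit of respiratory complex I encoded by the mitochondrial genome. SLC25A36 measured 10.5, 14.3, 13.1 and 16.4 CPM at 12 °C and 38.2, 34.2, 42 and 40.8 CPM at 1.5 °C in G. lacustris. In E. verrucosus it measured 2.58, 4.52, 5.5 and 6.08 CPM at 12 °C and 4.65, 4.24, 3.87 and 1.96 CPM at 1.5 °C. In E. cyaneus it measured 2.18, 5.79, 4.01 and 4.23 CPM at 12 °C and 4.01, 4.71, 5.02 and 4.78 CPM at 1.5 °C. The cold libraries of G. lacustris were all above the warm ones, and both endemics overlapped. The difference was -2.09 (SE 0.33, adjusted p = 3.26e-09) as deposited and -1.59 (SE 0.34, edgeR adjusted p = 0.000366) in counts. ND2 had log2 fold changes of -0.23, -1.99 and 1.42 in the authors' deposited tables in the order E. verrucosus, E. cyaneus and G. lacustris. Its difference was -2.53 (SE 0.61, adjusted p = 0.000136). Its mean normalised counts were 21445.1, 21.8 and 26.8 in the same order, so the entries may not be the same gene copy. The last 2 lie near the minimum. The abundant mitochondrially encoded entries of G. lacustris, ND1 and COX1, did not rise (means 27070.2 and 49132.8). Their deposited log2 values there were -0.55 (SE 0.33), not past the authors' threshold, and -2.0. ND2 therefore does not stand for the mitochondrially encoded symbols.

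The other symbols named here that lay below G. lacustris have other or unclear roles. STYX encodes a phosphatase-like protein without catalytic activity. It measured 31.1, 24.8, 21.7 and 14.2 CPM at 12 °C and 7.11, 9.82, 12.1 and 10.4 CPM at 1.5 °C in E. cyaneus. In G. lacustris it measured 6.1, 8.14, 6.74 and 5.25 CPM at 12 °C and 8.5, 10.3, 12 and 11 CPM at 1.5 °C. In E. verrucosus it measured 25.6, 13.9, 19.4 and 12.7 CPM at 12 °C and 13.2, 13.5, 14.7 and 18.1 CPM at 1.5 °C. The cold libraries were lower in E. cyaneus and higher in G. lacustris without overlap, and E. verrucosus overlapped. The difference was -1.96 (SE 0.35, adjusted p = 2.36e-07) as deposited and -1.41 (SE 0.32, edgeR adjusted p = 0.00068) in counts. WDR89, a WD-repeat protein, measured 7.73, 10.3, 9.54 and 10.4 CPM at 12 °C and 19.6, 24.6, 29 and 22.9 CPM at 1.5 °C in G. lacustris. In E. verrucosus it measured 20.7, 18.7, 22.8 and 18.3 CPM at 12 °C and 23.8, 34.6, 28.4 and 33.9 CPM at 1.5 °C. In E. cyaneus it measured 42.4, 37.1, 36.9 and 36.3 CPM at 12 °C and 25.4, 30.4, 31.8 and 39.1 CPM at 1.5 °C. WDR89 was thus higher in the cold without overlap in both G. lacustris and E. verrucosus, although the authors' adjusted p of the latter was 0.228, and overlapped in E. cyaneus. The difference was -1.68 (SE 0.29, adjusted p = 7.56e-08) as deposited and -1.18 (SE 0.23, edgeR adjusted p = 0.000147) in counts. UNC-93 and PARP12 had differences of -2.27 and -1.99, and each passed the authors' threshold in G. lacustris alone.

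OPN4, the symbol of melanopsin, a light-sensing opsin, belongs to the 22 but split the endemic species. It measured 23.8, 84.3, 116 and 90.4 CPM at 12 °C and 8.3, 29.5, 22 and 13.9 CPM at 1.5 °C in E. cyaneus. In E. verrucosus it measured 60, 75, 40.2 and 21.9 CPM at 12 °C and 39.2, 126, 24 and 71.2 CPM at 1.5 °C. In G. lacustris it measured 3.59, 19, 7.05 and 4.87 CPM at 12 °C and 12.5, 42.9, 27.4 and 20.5 CPM at 1.5 °C. The groups overlapped in all 3 species, by a single library in G. lacustris and in E. cyaneus. OPN4 fell by 2.16 in E. cyaneus (adjusted p = 7.75e-05) and rose by 2.01 in G. lacustris (adjusted p = 7.48e-05) in the authors' deposited tables, while the value in E. verrucosus was 0.40 (SE 0.56). The difference from the endemic mean was -2.89 (SE 0.59, adjusted p = 5.95e-06), and it averages endemic responses that were themselves called different (E. verrucosus minus E. cyaneus 2.56, adjusted p = 0.0106). The arrestin ARR2, which ends opsin signalling, had a difference of -1.79 (SE 0.59, adjusted p = 0.00534) as deposited and -0.94 after centring outside the low peak, where it did not pass.

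**Figure D3:**
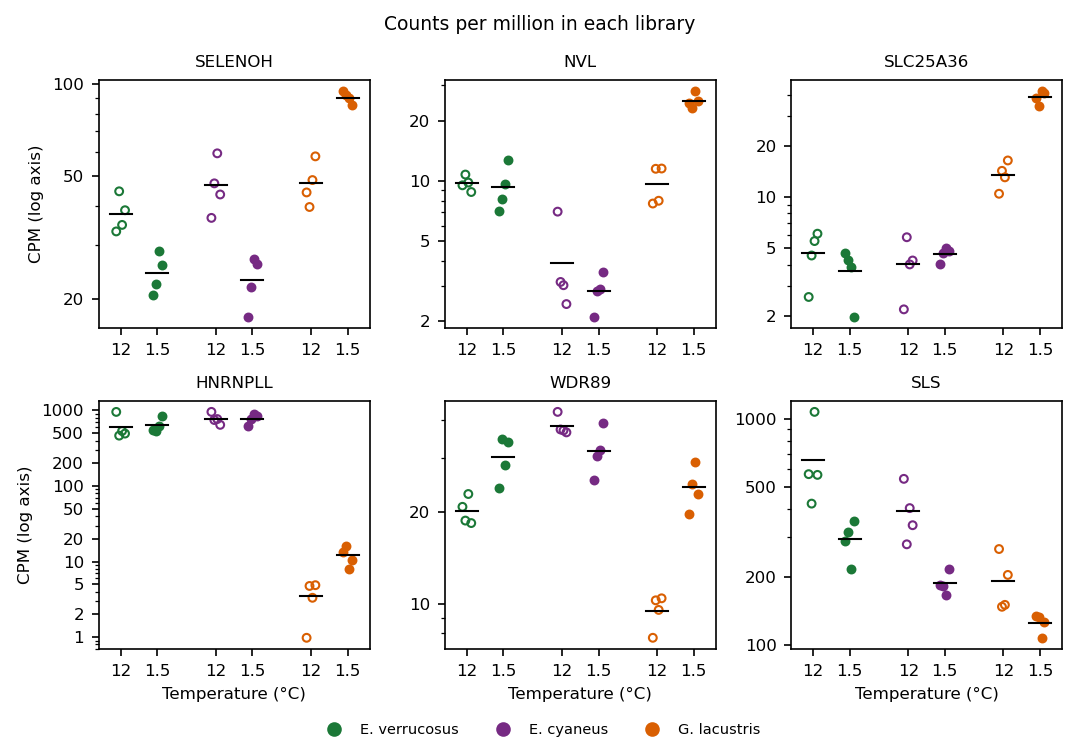
CPM on a log axis in each library of SELENOH, NVL, SLC25A36, HNRNPLL, WDR89 and SLS at 12 °C (open circles) and 1.5 °C (filled circles) in E. verrucosus (green), E. cyaneus (purple) and G. lacustris (orange), with black lines at the mean of 4 libraries. The cold libraries of G. lacustris lie above its warm libraries for the first 5 symbols, and SLS is lower in the cold in all 3 species. Levels are not comparable between species.

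The 10 symbols with the endemics above G. lacustris were fewer and moved less as deposited, from 0.65 for USP9X to 1.76 for TGS1. CTCF, a zinc-finger protein that shapes chromatin loops, was the only one with counts in all 3 species. It measured 7.3, 3.28, 5.6 and 3.72 CPM at 12 °C and 2.37, 1.98, 2.62 and 1.63 CPM at 1.5 °C in G. lacustris. In E. cyaneus it measured 3.46, 5.3, 5.43 and 8.05 CPM at 12 °C and 7.66, 7.47, 8.58 and 9.29 CPM at 1.5 °C. In E. verrucosus it measured 4.51, 5.13, 4.08 and 7.32 CPM at 12 °C and 6.38, 3.62, 4.79 and 4.04 CPM at 1.5 °C. The cold libraries of G. lacustris were all below the warm ones, while the endemic groups overlapped. The difference was 1.03 (SE 0.43, adjusted p = 0.0279) as deposited, 1.89 after centring outside the low peak and 1.40 (SE 0.36, edgeR adjusted p = 0.00237) in counts. The G. lacustris name covers 2 transcripts that lie on opposite sides of the low-peak boundary, at log2 values of -1.95 and 1.1 in counts, and the lower one holds 79.7% of its counts.

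Among the others, USP9X removes ubiquitin from proteins, PKD2 is the cation channel polycystin-2, SSL-1 carries the Caenorhabditis elegans name of a chromatin-remodelling ATPase, DVL3 transmits Wnt signals and PRC1 is the symbol of a protein that bundles microtubules in dividing cells. Of these 5, all passed the authors' threshold downward in G. lacustris, with log2 values of -0.67, -0.70, -0.74, -0.87 and -0.66 in the authors' deposited table. PRC1 also rose in E. cyaneus, by 0.70 (adjusted p = 0.0324) in the authors' deposited table, from 4.35, 6.68, 6.23 and 7.07 CPM at 12 °C to 11, 9.98, 9.16 and 12.3 CPM at 1.5 °C without overlap. USP9X ranged from 13.4 to 23 CPM at 12 °C and 23.4 to 27.7 CPM at 1.5 °C in E. cyaneus and from 3.86 to 10.9 CPM at 12 °C and 5.75 to 8.35 CPM at 1.5 °C in E. verrucosus. The E. cyaneus groups of USP9X were separate, those of E. verrucosus overlapped, and its difference was 0.65 (SE 0.29, adjusted p = 0.0385). SYM-2 rose in E. cyaneus by 0.64 in the authors' deposited table, and SCAPER, 1 of the 2 symbols nearest to the boundary, fell in G. lacustris by 0.90.

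HAL and TGS1 were above G. lacustris through 1 endemic species each. HAL is histidine ammonia-lyase, the first enzyme of histidine breakdown, and TGS1 adds the trimethylguanosine cap to small nuclear RNAs. HAL measured 1.92, 2.65, 4.36 and 5.69 CPM at 12 °C and 31.4, 19.6, 22.8 and 23.3 CPM at 1.5 °C in E. cyaneus, where it rose by 2.61 (SE 0.32) in the authors' deposited table (adjusted p = 1.83e-13). Its deposited log2 values were -0.02 in E. verrucosus and 0.29 in G. lacustris, neither past the authors' threshold. TGS1 measured 1.03, 1.39, 0.833 and 0.43 CPM at 12 °C and 6.28, 4.51, 6.39 and 12.7 CPM at 1.5 °C in E. verrucosus, where it rose by 3.07 (SE 0.53) in the authors' deposited table (adjusted p = 1.08e-06), and had deposited values of 0.47 in E. cyaneus and 0.01 in G. lacustris. The cold and warm libraries of both symbols were separate in the species that rose. The endemic means of HAL and TGS1 therefore describe neither endemic species.

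GPD2, MEPCE and TUT1 were above G. lacustris in the count test, as was CTCF, but not as deposited. GPD2 is the mitochondrial glycerol-3-phosphate dehydrogenase, MEPCE caps the 7SK RNA and TUT1 adds uridines to the U6 RNA. GPD2 measured 5.55, 4.12, 4.87 and 4.11 CPM at 12 °C and 1.78, 1.98, 2.62 and 1.52 CPM at 1.5 °C in G. lacustris, without overlap, and its differences were 1.21 (SE 0.26, edgeR adjusted p = 0.000484) in counts and -0.02 as deposited. MEPCE had differences of 1.02 (SE 0.35, edgeR adjusted p = 0.0205) in counts and -0.08 as deposited. TUT1 ranged from 33.1 to 44.1 CPM at 12 °C and 22.7 to 30.8 CPM at 1.5 °C in G. lacustris, without overlap, and its difference in counts was 0.90 (SE 0.36, edgeR adjusted p = 0.0433). The G. lacustris names of all 4 symbols join transcripts on both sides of the low-peak boundary, which held for 20 of the 97 shared symbols whose G. lacustris name covers more than 1 transcript. The count test sums transcripts without the correction for transcript length that the deposited values carry. Beyond the median shift, 6 of 143 count fold changes of G. lacustris lay over 0.5 from the deposited ones, and 0 in either endemic species. The part of transcript length in the gaps of GPD2, MEPCE and TUT1 was not tested.

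The 70 low-peak symbols had differences of up to 3.45, and these are described here without a test, since the peak was chosen on the G. lacustris contrast. All 70 fell in G. lacustris by the authors' adjusted p, against 1 lower and 2 higher in E. verrucosus and 6 lower and 2 higher in E. cyaneus. The most abundant in G. lacustris were COX1, the core subunit of cytochrome c oxidase encoded by the mitochondrial genome, DYNLL2, a dynein light chain, RPS27A, a ubiquitin fused to a ribosomal protein, and DDX6, an RNA helicase of mRNA decay. DYNLL2 measured 260.3, 77.5, 124 and 84.2 CPM at 12 °C and 15.3, 20.6, 14.5 and 11.2 CPM at 1.5 °C in G. lacustris. In E. verrucosus it measured 198, 113, 149 and 139.5 CPM at 12 °C and 144, 179.9, 142 and 180.4 CPM at 1.5 °C. RPS27A measured 158, 77.3, 89.6 and 67.8 CPM at 12 °C and 15.8, 22.6, 15.6 and 10.5 CPM at 1.5 °C in G. lacustris. Both were lower in every cold library of G. lacustris than in any warm one, and overlapped in both endemics. In the authors' deposited tables, in the order E. verrucosus, E. cyaneus and G. lacustris, the log2 values were 2.23, -0.16 and -2.0 for COX1 and 0.25, 0.00 and -2.10 for DDX6. The COX1 value of E. verrucosus had an SE of 1.20 and did not pass (authors' adjusted p = 0.394). The mean normalised counts of COX1 were 252, 683 and 49132.8 in the same order, so the entries may not be the same gene copy.

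Against 70 of all 333 symbols (21.0%), the low peak held 36 of the 190 symbols in none of the lists used here, and its spread over the lists was not tested. Among lists of at least 3 symbols, it held 5 of 14 cytosolic ribosomal proteins, 3 of 4 enzymes of central carbon metabolism (GYS2, IDH2 and IDH3B), 2 of 3 replication and cell cycle symbols (MCM4 and CDK9) and 2 of 3 microtubule symbols. Also in it were 2 of 5 ubiquitin symbols, 2 of 6 translation factors, 2 of 6 ribosome assembly symbols, 2 of 7 splicing symbols, 2 of 8 tRNA synthetases and modifiers, 2 of 10 symbols of the transcription machinery and 2 of 11 of folding and traffic at the endoplasmic reticulum. It held 1 symbol each of the lists for mitochondrially encoded subunits (of 4), ion transport (of 4), lipids (of 5), amino acid breakdown (of 5), muscle (of 6) and digestive hydrolases (of 7). The first of these lists holds COX1, ND1 and ND2 and also MTO1, a nuclear gene that encodes no such subunit. CDK9 is counted both with the replication and cell cycle symbols and with the transcription machinery. USP39, of the spliceosome, is counted with the ubiquitin symbols. None of the 5 solute carriers, 4 chaperones, 4 biotransformation symbols, 3 antioxidant symbols and 3 symbols listed under mitochondrial carriers and import lay in it. Transcripts of paired low-peak names in the G. lacustris table took 1.25 to 3.46% of the counts of a library at 12 °C and 0.232 to 0.408% at 1.5 °C, over 540 names. The 867 other paired names took 4.14 to 4.77% and 5.23 to 5.66%. The highest low-peak share, 3.46%, was that of the first 12 °C library, and the ranges of the 2 temperatures did not overlap. A lower share of the low-peak names in the cold follows from how the peak was chosen on these same libraries.

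Single low-peak symbols did respond in an endemic species. USP39, of the spliceosome, rose in E. verrucosus by 0.70 and ADRM1, a ubiquitin receptor of the proteasome, by 0.89 in the authors' deposited table. SNRNP200, a spliceosomal helicase, rose in E. cyaneus by 0.61 in the authors' deposited table. TDO2, which opens the ring of tryptophan, fell in E. cyaneus by 1.74 (adjusted p = 2.43e-14) as well as in G. lacustris by 2.49 (adjusted p = 7.17e-09) in the authors' deposited tables, with 0.56 (SE 0.59) in E. verrucosus. None of the 70 met the criteria of a response alike on any scale.

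Few symbols met the criteria of a response alike in the 3 species. A symbol was described as alike where the mean of the 3 fold changes passed its own test, all 3 had 1 sign, and the 95% interval of the difference lay between -1 and 1 on the log2 scale with no call. The mean passed for 124 of 333 symbols (37.2%), and 5 (1.50%) met all criteria as deposited, 4 higher in the cold (1.20%) and 1 lower (0.300%). Centred on the shared symbols, the mean passed for 110 (33.0%) and 10 were alike (3.00%), 6 higher (1.80%) and 4 lower (1.20%). Centred outside the low peak, it passed for 119 (35.7%) and 9 were alike (2.70%), 5 higher (1.50%) and 4 lower (1.20%). Over the 3 scales 17 symbols were alike on at least 1, and COPE was the only one alike on all 3. COPE is the epsilon subunit of the COPI coat, which carries vesicles from the Golgi back to the endoplasmic reticulum. It measured 87.3, 71.2, 77.2 and 87.3 CPM at 12 °C and 107, 119, 139.6 and 108 CPM at 1.5 °C in G. lacustris. In E. verrucosus it measured 70.2, 56.9, 38.8 and 51.8 CPM at 12 °C and 89, 64.4, 76.2 and 107 CPM at 1.5 °C. In E. cyaneus it measured 40, 72.4, 62.9 and 61.8 CPM at 12 °C and 65, 64.4, 70.8 and 90.6 CPM at 1.5 °C. The means were higher in the cold in every species, and the groups were separate in G. lacustris alone. The mean of the 3 log2 fold changes of COPE was 0.57 (SE 0.13, adjusted p = 0.000142), and its difference was -0.45 (95% interval -0.95 to 0.04).

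As deposited, the other alike symbols were RPS16, the lysosomal transporter MFSD8 and the splicing factor U2SURP, all higher in the cold, and the splicing factor RBM25, lower. Their means of 3 log2 fold changes were 0.68, 0.51, 0.44 and -0.49. Neither these symbols nor COPE passed the authors' threshold in either endemic species, and RBM25 passed in none of the 3. Alike as used here therefore does not mean a response established in each species. After centring outside the low peak, AK6, EIF3D, GATAD1 and SRPR joined COPE among those higher in the cold, and JMJD6, RPS13, SLS and TNNI1 were lower. EIF3D is a subunit of the initiation factor eIF3 and SRPR the receptor of the signal recognition particle, which brings nascent secreted proteins to the endoplasmic reticulum. The centred means were 0.31 for EIF3D and 0.32 for SRPR. EIF3D and RPS16 are among the 20 G. lacustris names that join transcripts on both sides of the low-peak boundary.

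Muscle held 2 of the symbols alike after centring, both lower in the cold. SLS carries the Drosophila name of the titin-like sarcomere protein sallimus, and TNNI1 is troponin I. SLS measured 569, 421, 1072 and 564 CPM at 12 °C and 288, 316, 216 and 353 CPM at 1.5 °C in E. verrucosus. In E. cyaneus it measured 542, 278, 402 and 338 CPM at 12 °C and 185, 181, 166 and 216 CPM at 1.5 °C. In G. lacustris it measured 265, 147, 150.2 and 204 CPM at 12 °C and 134, 133, 107 and 126 CPM at 1.5 °C. Every cold library lay below every warm library in all 3 species. SLS fell in E. verrucosus by 1.11 (adjusted p = 0.0481) and in E. cyaneus by 1.19 (adjusted p = 0.000346) in the authors' deposited tables, and its value in G. lacustris, -0.21 (SE 0.23), did not pass there. The difference was -0.94 (SE 0.32, adjusted p = 0.00746) as deposited and -0.08 after centring outside the low peak, with a 95% interval of -0.71 to 0.55. The centred mean of 3 was -1.07 for SLS and -0.89 for TNNI1.

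Over the 5 muscle symbols outside the low peak (MLC2, MYL6, SLS, TNNI1 and UNC-89), the median log2 fold change was 0.05 in G. lacustris, against -0.87 in E. verrucosus and -1.19 in E. cyaneus. After centring outside the low peak the medians, with G. lacustris last and E. verrucosus first, were -0.85, -1.11 and -0.76. By the authors' adjusted p, 1 of the 5, SLS, fell in E. verrucosus, against 8 of the 263 symbols outside the low peak. In E. cyaneus 4 of the 5 fell (MLC2, SLS, TNNI1 and UNC-89), against 20 of the 263. In G. lacustris 1 of the 5 rose and 0 fell, against 150 and 9 of the 263. That 1 was MYL6, an essential myosin light chain, with 1.16 (SE 0.24) in the authors' deposited table, and its difference of -1.63 (SE 0.38, adjusted p = 9.93e-05) was the most negative of the 5. These symbols include 4 of the 5 muscle markers named above, and the fifth, MHC, had log2 values of -0.40, -0.78 and -0.53 in the authors' deposited tables, none past the threshold. The mean normalised count of MHC was 14.7 in E. verrucosus, under the minimum of 20, 63.3 in E. cyaneus and 102084 in G. lacustris. The MHC entries may therefore not be the same gene copy. The part of the amount of muscle in these values was not tested.

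By function, outside the low peak, the lists are read beside the 263 symbols as a whole, which had a median difference of -0.88 as deposited and -0.02 after centring outside the low peak. Of those 263, 10 were called above and 134 below as deposited, and 39 above and 22 below after centring. These calls were adjusted over all 333 symbols. The 9 cytosolic ribosomal proteins had a median difference of -0.61 with 0 above and 3 below, and 0.24 with 1 above and 3 below after centring. RPS3 and RPL19 were 2 of the 3 below on both scales, and the third is not named here. The most negative difference of this list was -2.88. The 4 translation factors had a median difference of -1.24 with 0 above and 3 below, and -0.38 with 0 above and 0 below after centring. The 4 ribosome assembly symbols had a median difference of -1.25 with 0 above and 3 below, and -0.39 with 0 above and 1 below after centring, the last being DDX47. The 6 tRNA synthetases and modifiers had a median difference of -1.10 with 0 above and 4 below, and -0.24 with 1 above and 2 below after centring. QARS and TARS were the 2 below after centring.

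The 9 symbols of folding and traffic at the endoplasmic reticulum had a median difference of -0.99 with 0 above and 7 below, and -0.14 with 0 above and 2 below after centring. All 9 rose in G. lacustris by the authors' adjusted p, as did 150 of the 263 symbols, while the 2 further members in the low peak, AP2A2 and SEC22B, fell there. P4HB fell in E. verrucosus and AP3S1 fell in E. cyaneus. P4HB and PDI were the 2 below after centring, and COPE and SRPR of the same list were alike on at least 1 scale. The 4 chaperones had a median difference of -0.89 with 0 above and 2 below, and -0.03 with 1 above and 1 below after centring. HSPA1A was the 1 below, and the heat shock cognate HSPA8 rose in E. verrucosus by 0.89 in the authors' deposited table. The 5 splicing symbols had a median difference of -0.80 with 0 above and 2 below, and 0.06 with 0 above and 1 below after centring. The 3 symbols listed under mitochondrial carriers and import had a median difference of -1.66 with 0 above and 2 below, and -0.80 with 0 above and 1 below after centring. The members of this list were SLC25A1, SLC25A36 and TOM1L2, and SLC25A36 was the 1 below on all scales. TOM1L2 entered the list by its name and is not a mitochondrial import protein, so the list holds no import symbol.

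The transcription list lay above the median of all symbols. The 8 symbols of RNA polymerases, Mediator and general factors had a median difference of -0.10 with 0 above and 2 below, and 0.76 with 4 above and 0 below after centring. Their median log2 fold change was -0.08 in G. lacustris, against -0.23 in E. verrucosus and -0.08 in E. cyaneus, while the 263 symbols had 0.80 in G. lacustris. By the authors' adjusted p, 0 of the 8 passed in either endemic, against 14 and 29 of the 263 symbols in E. verrucosus and E. cyaneus, and 2 rose in G. lacustris, against 150 of the 263. The 2 further members in the low peak, CDK9 and TAF8, fell in G. lacustris. None of the 8 was apart on all scales. TAF1, of this list, lies just outside the low-peak boundary. The transcription list was not the only one above the median. The 3 ubiquitin symbols had a median of 0.65 with 1 above and 1 below, and 1.51 with 2 above and 0 below after centring. The 3 symbols listed as mitochondrially encoded had -0.05 with 0 above and 1 below, and 0.81 with 1 above and 1 below after centring. The 3 antioxidant and 3 ion transport symbols lay below the median, at -1.19 and -1.37 as deposited.

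Among the metabolic lists, the 4 lipid symbols had a median difference of -0.92 with 0 above and 3 below, and -0.06 with 0 above and 0 below after centring, and SMPD1, an acid sphingomyelinase, fell in E. verrucosus by 1.28 in the authors' deposited table. The 4 amino acid breakdown symbols had a median difference of -0.91 with 1 above and 2 below, and -0.05 with 1 above and 0 below after centring, and the 1 above was HAL. The 6 digestive and lysosomal hydrolases had a median difference of -1.28 with 0 above and 4 below, and -0.42 with 0 above and 0 below after centring, and the 4 biotransformation symbols had a median difference of -1.27 with 0 above and 4 below, and -0.41 with 0 above and 0 below after centring. SULT1C3, a sulfotransferase of the latter list, fell in E. verrucosus by 1.57 and in E. cyaneus by 0.88 in the authors' deposited tables and had 0.27 (SE 0.30) in G. lacustris. Its difference was -1.49 (SE 0.38, adjusted p = 0.00028), and -0.64 after centring, where it did not pass. The 5 solute carriers had a median difference of -0.85 with 0 above and 1 below, and 0.01 with 0 above and 0 below after centring. Central carbon metabolism kept a single symbol outside the low peak, PFKFB2, a regulator of glycolysis, with a difference of -1.78 (SE 0.46, adjusted p = 0.000408).

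Leaving out the low peak removes symbols because they fell in G. lacustris, and so takes out symbols with the endemics above. With the low-peak symbols, the median difference of all 333 was -0.61 with 75 above and 134 below as deposited, and 0.25 with 108 above and 22 below after centring. That of all 14 cytosolic ribosomal proteins was -0.08 with 5 above and 3 below as deposited, and 0.78 with 6 above and 3 below after centring. For the 10 symbols of the transcription machinery it was 0.17 with 2 above and 2 below as deposited, and 1.03 with 6 above and 0 below after centring. The 11 symbols of folding and traffic at the endoplasmic reticulum had -0.97 with 2 above and 7 below as deposited, and -0.11 with 2 above and 2 below after centring. The 8 tRNA synthetases and modifiers had -0.86 with 2 above and 4 below as deposited, and 0.00 with 3 above and 2 below after centring, and the 7 splicing symbols -0.35 with 2 above and 2 below as deposited, and 0.51 with 2 above and 1 below after centring. Translation factors, 6 in all, had -0.76 with 2 above and 3 below as deposited, and 0.09 with 2 above and 0 below after centring, and the 6 ribosome assembly symbols -0.97 with 2 above and 3 below as deposited, and -0.11 with 2 above and 1 below after centring. The 4 enzymes of central carbon metabolism had 2.07 with 3 above and 1 below as deposited, and 2.93 with 3 above and 0 below after centring. Digestive hydrolases, 7 in all, had -1.18 with 1 above and 4 below as deposited, and -0.33 with 1 above and 0 below after centring. The 6 muscle symbols had -1.0 with 0 above and 4 below as deposited, and -0.14 with 0 above and 0 below after centring. The 4 symbols listed as mitochondrially encoded had 0.29 with 1 above and 1 below, and 1.15 with 2 above and 1 below after centring. The 4 ion transport symbols had -1.11 with 1 above and 2 below, and -0.25 with 1 above and 0 below after centring. The 5 lipid symbols had -0.65 with 1 above and 3 below as deposited, and 0.20 with 1 above and 0 below after centring, and the 5 of amino acid breakdown -0.51 with 2 above and 2 below as deposited, and 0.35 with 2 above and 0 below after centring. The 5 ubiquitin symbols had 0.85 with 3 above and 1 below as deposited, and 1.71 with 4 above and 0 below after centring. The 3 microtubule symbols had 1.62 with 2 above and 0 below, and 2.48 with 3 above and 0 below after centring. The 3 replication and cell cycle symbols had 2.36 with 2 above and 0 below, and 3.22 with 2 above and 0 below after centring. Chaperones, antioxidant and biotransformation symbols, solute carriers and mitochondrial carriers had no low-peak member.

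**Figure D4:**
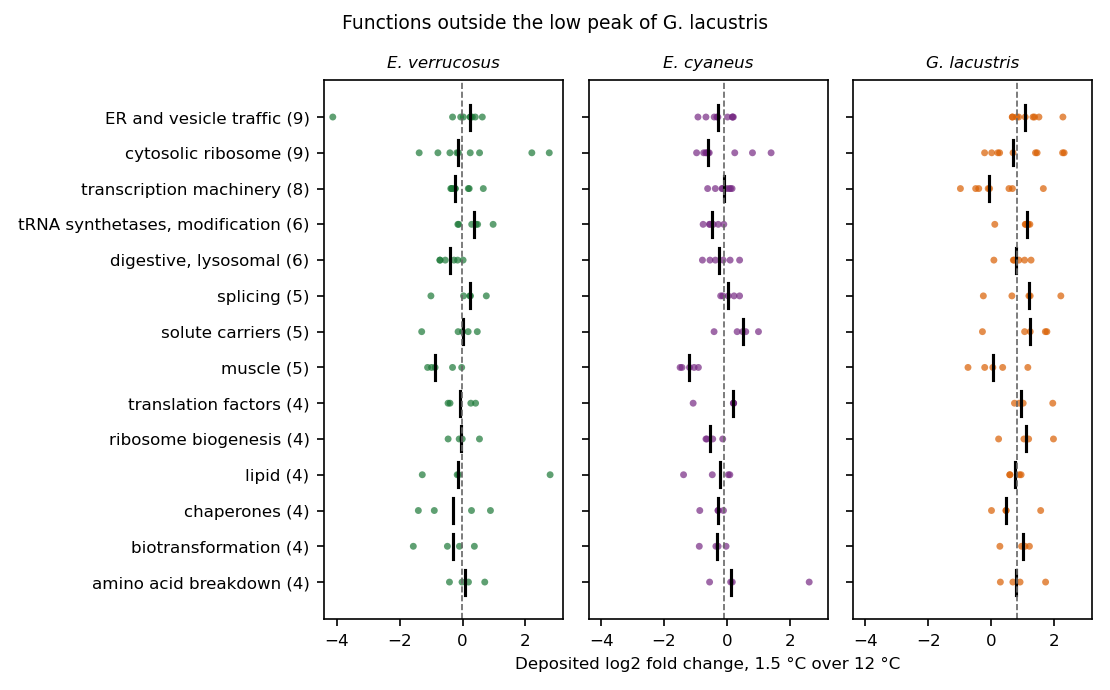
Deposited log2 fold change (x axis) of the shared symbols outside the low peak of G. lacustris, by functional list (y axis, number of symbols in parentheses) in E. verrucosus, E. cyaneus and G. lacustris. Points are symbols, black bars are list medians and dashed lines are the medians of all 263 symbols, -0.03, -0.08 and 0.80. The muscle list lies below the dashed line in all 3 species, with medians of -0.87, -1.19 and 0.05, and the transcription machinery lies below it in G. lacustris.

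The mean of the endemic species hides differences between them. E. verrucosus and E. cyaneus differed in their deposited fold changes for 16 of 333 symbols (4.80%), 8 with E. verrucosus higher (2.40%) and 8 with E. cyaneus higher (2.40%), in a comparison added after the data had been seen. VG, the yolk precursor vitellogenin, was 1 of these. It measured 411, 199.7, 104 and 194 CPM at 12 °C and 1700.1, 1189, 1794 and 956 CPM at 1.5 °C in E. cyaneus, without overlap, and rose there by 2.47 (SE 0.41) in the authors' deposited table (adjusted p = 5.32e-07). The deposited log2 values of VG were 0.01 in E. verrucosus and 0.59 in G. lacustris, neither past the authors' threshold. VG is 1 of the 2 yolk and ovary markers looked for, the other was in none of the tables, and the labels give neither the sex nor the brood state of the pooled animals.

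RPL-9 had the widest gap of the 16, falling by 3.94 in E. verrucosus and rising by 1.13 in E. cyaneus and 2.26 in G. lacustris in the authors' deposited tables. Both endemic values lay below that of G. lacustris. The mean normalised counts of RPL-9 were 829.5, 80.7 and 6549.6 in the same order, so the entries may not be the same gene copy. P4HB was lower in E. verrucosus than in E. cyaneus by the same test (adjusted p = 2.44e-05). The polyubiquitin symbol UBB rose in E. cyaneus by 1.57 in the authors' deposited table. The linker histone H1F0 fell in E. cyaneus by 1.28 and rose in G. lacustris by 1.32 in the authors' deposited tables. Hemolectin, HML, a clotting protein of blood cells in Drosophila, rose in E. cyaneus by 1.05 in the authors' deposited table. Further symbols that differed between the endemics were GARS, PFKFB2, RPL10, RPL38, SMPD1 and TDO2, with HAL, OPN4 and TGS1 described above.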

How the data were processed

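Reads were processed by the authors. Per the series' design text, Trinity assembled 1 transcriptome per species, cd-hit-est and TransRate filtered it, and only transcripts with animal matches were kept. The submitters' processing notes give Salmon 1.1.0 together with DESeq2 1.26.0. The deposited library files hold estimated counts per transcript, per the file headers, and TPM, which the authors also deposited and which was not used. The authors' deposited tables hold, per the file headers, for each gene name the mean normalised count (a signal), the log2 fold change and its error, the Wald statistic (a score), and raw and adjusted p-values. Number of series columns not used: 0.

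The members and lists were chosen with earlier results of these data known. For each of 333 symbols, the difference (mean of the 2 endemic log2 fold changes minus that of G. lacustris) and the mean of 3 were tested by a 2-sided Wald test from the DESeq2 fold changes and errors, with Benjamini-Hochberg adjustment over the 333 at 0.05. Of several entries of 1 symbol, the one with the highest mean count was used. Estimated counts were rounded to whole numbers, and names were given to transcripts whose mean normalised count equalled the deposited one within a relative 1e-12. Deposited means shifted by a relative 1e-05 gave 0 matches. For sets of transcripts the counts were summed, without the correction for transcript length that the deposited values carry. The 143 symbols with counts in all species were tested with edgeR 4.0.16 (R 4.3.3; quasi-likelihood, 6 group means, TMM within species), and tests were checked on simulated data. CPM use TMM library sizes.

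The low peak is the part of the G. lacustris fold changes below the density minimum (Gaussian kernel, Silverman bandwidth). Symbols named in the text are the 10 largest differences per direction that passed the count test outside the low peak, then the deposited test, the 2 smallest p-values of each list, up to 10 alike symbols and 4 abundant low-peak symbols. Other symbols apart on all scales and those that differ between the endemics were named after their values were seen, and a few symbols are not reported here. Other settings tried were size factors, DESeq2 1.42.0, limma 3.58.1 (voom), filters, pairing, centring, a replicate block and leaving out each library. Sequences and genome positions were not used here.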

Additional observations from a re-analysis of the deposited data

Results flagged for a closer look

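In 5 groups of 4 libraries, 1 library stood apart from the other 3 by Dixon's criterion, among 134 such groups looked at, and chance marks about 1 in 20. They were HNRNPLL in E. verrucosus at 12 °C, where the highest library held 958 CPM and the next 535.5, NVL in E. cyaneus at 12 °C (highest 7.04 CPM), P4HB in G. lacustris at 1.5 °C (highest 167 CPM), PQBP1 in E. cyaneus at 1.5 °C (lowest 7.84 CPM) and WDR89 in E. cyaneus at 12 °C (highest 42.4 CPM).

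The mean response of the endemic species and that of G. lacustris differed in the count test for 18 named symbols outside the low peak. Symbols were named in part because they passed this test. Of all 108 symbols with counts outside the low peak, 4 were above and 33 below in it. The endemic mean was below G. lacustris, in log2 units, for OPN4 (-2.42), HNRNPLL (-1.76), SELENOH (-1.75), RPS3 (-1.68), NVL (-1.62), SLC25A36 (-1.59), DDX47 (-1.57), H1F0 (-1.45), STYX (-1.41), RIN2 (-1.32), MYL6 (-1.15), AQP9 (-1.07), TARS (-1.0) and FAH (-0.92). It was above for CTCF (1.40), GPD2 (1.21), MEPCE (1.02) and TUT1 (0.90), the 4 whose G. lacustris names join transcripts on both sides of the low-peak boundary.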

How the results depend on the processing

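As deposited, 75 symbols were above G. lacustris and 134 below. The count above became 128 of 480 at a mean count of at least 10, 33 of 186 at 50 and 10 of 263 without the low-peak symbols. The count below became 82 with E. verrucosus alone, 41 centred on the shared symbols and 22 centred outside the low peak. By counts, 39 were above and 33 below. Above became 129 of 393 without a filter, 18 of 82 at a mean count of 50, 4 of 28 for names of 1 transcript and 3 without the low-peak symbols. Below became 21 at 50, 13 for names of 1 transcript, 12 centred on the shared symbols and 7 centred outside the low peak. Alike symbols, 5 as deposited, became 3 at 50, 10 and 9 on the 2 centred scales, and 0 and 18 with interval bounds of 0.5 and 1.5. The mean of 3 passed for 124, for 68 at 50 and for 71 without the low-peak symbols. Of 22 lists of at least 3 symbols, 16 had a negative median, and 9 centred outside the low peak. CBX1 changed sign under that centring, to 0.099. Smaller filtered sets had fewer symbols to test, and centring moves every difference by 1 amount.

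Leaving out 1 library at a time gave 37 to 40 symbols above and 24 to 40 below. Of 31 named symbols past the count test, TUT1, MYL6, AQP9, MEPCE and FAH lost the call without at least 1 library. Other scaling or tools gave 40 and 24 (DESeq2 size factors), 41 and 26 (DESeq2) and 39 and 33 (voom). Replicate numbers did not pair the samples (correlations of deviations -0.24 to 0.12, own number best for 3 of 12), and a replicate block gave 38 above and 25 below. Moving the boundary by 0.5 gave 90 or 56 low-peak symbols. The 190 symbols without counts in all 3 species have no per-library check of the difference.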

Other observations

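Symbols that passed the authors' threshold in 1 endemic species and are not described above were chosen here after their values were seen. In E. cyaneus, JUN, a transcription factor of stress responses, fell by 0.78 on the log2 scale and the ryanodine receptor RYR2, the calcium channel of muscle stores, fell by 0.83 in the authors' deposited table. Both also fell in G. lacustris, by 1.92 and 1.1, in the authors' deposited table, and both lie in the low peak. The beta-actin symbol ACTB fell by 0.72 in E. cyaneus and rose by 0.92 in G. lacustris in the authors' deposited tables, and its difference of -1.50 (adjusted p = 0.00043) passed as deposited. The elongation factor EEF1G went the same way, with -1.07 in E. cyaneus and 0.89 in G. lacustris in the authors' deposited tables. The lysosomal amidase AGA fell by 1.23 in E. cyaneus and rose by 0.62 in G. lacustris in the authors' deposited tables. None of ACTB, EEF1G and AGA was apart on all 3 scales.

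RPS27 rose in E. verrucosus by 2.76 and in G. lacustris by 2.27 in the authors' deposited tables, with 1.40 in E. cyaneus, which did not pass (adjusted p = 0.0795). The difference of RPS27 was -0.19 (adjusted p = 0.806), yet its 95% interval was too wide for it to be counted as alike. PHYKPL, a phospholyase of lysine breakdown, rose in E. verrucosus by 2.30 and in G. lacustris by 1.35 in the authors' deposited tables, with 0.80 in E. cyaneus, which did not pass.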
